A study of Mus musculus with 36 samples.

Results

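Small-intestinal CD8 intraepithelial lymphocytes (IELs) of wild-type mice cultured with IL-15 were compared with unstimulated CD8 IELs of wild-type mice. The comparison used 6 of the 36 samples of the series, 3 IL-15 libraries and 3 unstimulated libraries. They were picked by label, with earlier results of these data known. Both groups carry the label lnc13-WT, meaning that the long noncoding RNA lnc13 is intact, and the label for small-intestinal CD8 T IELs. According to the series design the IL-15 cells were CD8a+ IELs kept for 48 h in IL-15. The labels do not say whether the unstimulated cells were cultured without the cytokine or taken directly, and they give no age, sex, further allele or sort gate for these 6 samples. They describe the replicates as biological without naming the animals, so p-values measure the spread between these libraries. Cytokine, culture, and the table in which the authors normalised each library coincide with the group and cannot be told apart.

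IELs are T cells that live between the epithelial cells of the gut. Many carry CD8 as an alpha-alpha homodimer, others as the alpha-beta heterodimer made by conventional CD8 T cells, and a large share use the gamma delta T cell receptor. IL-15, presented by epithelial and myeloid cells, signals through the shared IL-2 receptor beta chain (Il2rb) and common gamma chain (Il2rg) to the kinases JAK1 and JAK3 and the transcription factor STAT5. It is known as a survival and growth factor of IELs and as an inducer of their granule-mediated killing, and its excess is a feature of coeliac disease.

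Libraries held 16327944 to 26997371 recovered reads with IL-15 and 18640829 to 23762128 without stimulation. Levels are given as CPM, reads of a gene as a share of the library scaled by TMM over the 6 libraries, in the order of replicates 1, 2 and 3. The IL-15 libraries resembled each other (Pearson correlation across genes 0.933 to 0.985), whereas the unstimulated libraries did so less (0.515 to 0.576) and no more than they resembled the IL-15 libraries (0.570 to 0.727). Of 4153 genes with a mean of at least 50 CPM, the IL-15 libraries each had at most 2 under 1 CPM, while unstimulated replicates 1, 2 and 3 had 155 (3.73%), 664 (16%) and 400 (9.63%). Of 4288 genes with a mean of at least 50 CPM in the unstimulated group itself, 1095 (25.5%) were under 1 CPM in at least 1 of its libraries, against 0 of 3900 in the IL-15 group, so many unstimulated means carry wide errors.

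The T cell label held in all 6 libraries. Cd3e, part of the CD3 signalling module, stood at 794, 749 and 1072 CPM with IL-15 and at 1271, 873 and 1343 CPM without, and Cd8a at 2340, 2187 and 3080 CPM against 1277, 1279 and 1228 CPM. Cd8b1, the beta chain that distinguishes the heterodimer, was at 330, 85.1 and 2314 CPM with IL-15 against 1753, 1231 and 1220 CPM. Thus IL-15 replicates 1 and 2 were low in Cd8b1 and replicate 3 was not. Trdc, the constant region of the delta chain, showed the reverse order, with 2062, 2215 and 101 CPM against 20.4, 62.1 and 19.5 CPM. Fcer1g, a signalling adaptor of natural and gamma delta IELs, followed Trdc with 1240, 1806 and 105 CPM against 48.4, 44.0 and 88.2 CPM. On these genes IL-15 replicate 3 lay nearer to the unstimulated libraries than to IL-15 replicates 1 and 2, so the value of replicate 3 against the unstimulated libraries is given beside the gene groups that move with Trdc. In such bulk samples fewer cells of a type and less RNA per cell cannot be told apart.

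**Figure D1:**
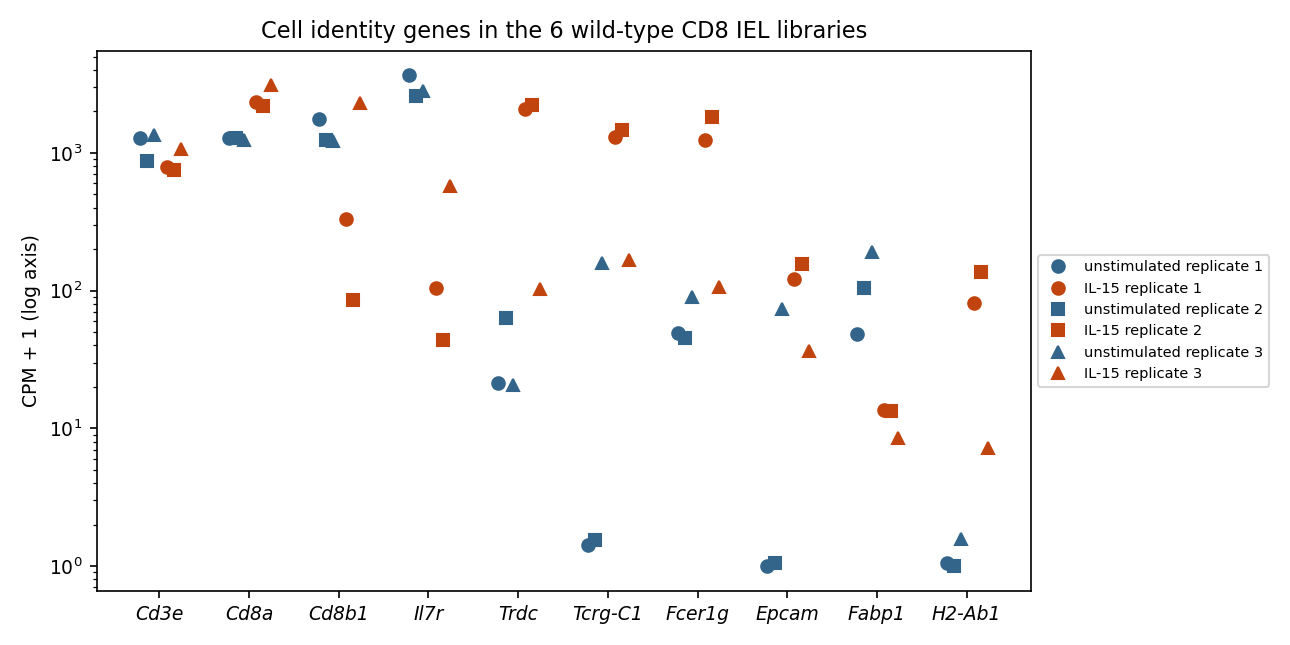
Levels of 10 cell identity genes in each library, as CPM + 1 on a log axis, with 1 point per library, blue for unstimulated and orange for IL-15. The IL-15 replicates 1 and 2 (orange circles and squares) are low in Cd8b1 and high in Trdc, Tcrg-C1 and Fcer1g, and IL-15 replicate 3 (orange triangles) is not.

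Perforin, granzyme B, Bcl2, 31 of 50 tested genes of DNA replication and mitosis and 8 of 17 STAT5 feedback and target genes were called higher in the IL-15 cultures than in unstimulated cells. The IL-7 receptor, Bcl6 and 7 of 11 mitochondrially encoded transcripts were called lower. In a limma fit on log2(CPM + 1), 1601 of 13029 genes tested (12.3%) were called higher with IL-15 and 147 (1.13%) lower at an adjusted p of 0.05. Groups did not overlap for 22.6% of genes with IL-15 higher and 8.27% with IL-15 lower. The median gene was 0.71 higher on the log2 scale, and with DESeq2 size factors, which put that median at -0.01, the calls became 1052 higher (8.06%) and 398 lower (3.05%). The share of calls that were higher was 91.6% in the first scaling and 72.6% in the second, so list medians below are read against 0.71. Counts of list members called are read against 12.3% higher and 1.13% lower. DESeq2's own test, over all genes with a read, called 1480 higher and 1952 lower. edgeR, which compares fitted mean counts and not mean logs, put the median gene at -0.22. In edgeR the medians of 16 lists that were positive in limma became negative, among them the BCL-2 family (-0.102), NF-kB feedback (-0.721), cytokine receptors (-0.737), lineage transcription factors (-0.937) and homing genes (-0.331), while those of STAT5 targets, DNA replication, granules and lipid synthesis stayed positive. A log2 difference of a gene near 0 in one group depends on the 1 CPM added and is not a fold change.

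The number of calls rested on single libraries. Without IL-15 replicate 1 no gene passed in either direction, and 2147 of the 12934 genes tested there had an unadjusted p under 0.05. Leaving out IL-15 replicate 2 gave 765 higher and 18 lower, and leaving out replicate 3 gave 1429 and 129. Without unstimulated replicate 1 the counts were 2785 and 467, without replicate 2 they were 1753 and 359, and without replicate 3 they were 2002 and 258. In edgeR the calls were 986 higher (7.66% of its genes) and 162 lower (1.26%), 8.91% either way, 866 genes were called by both fits, and all 866 had the same sign. Every wild-type call of the 6-library fit is therefore lost without IL-15 replicate 1. Of 36 calls among the genes named by size or always given, 19 were kept without IL-15 replicate 2, 23 without replicate 3 and 26 in edgeR. The KO fit and the test between genotypes were not run with a library left out.

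**Figure D2:**
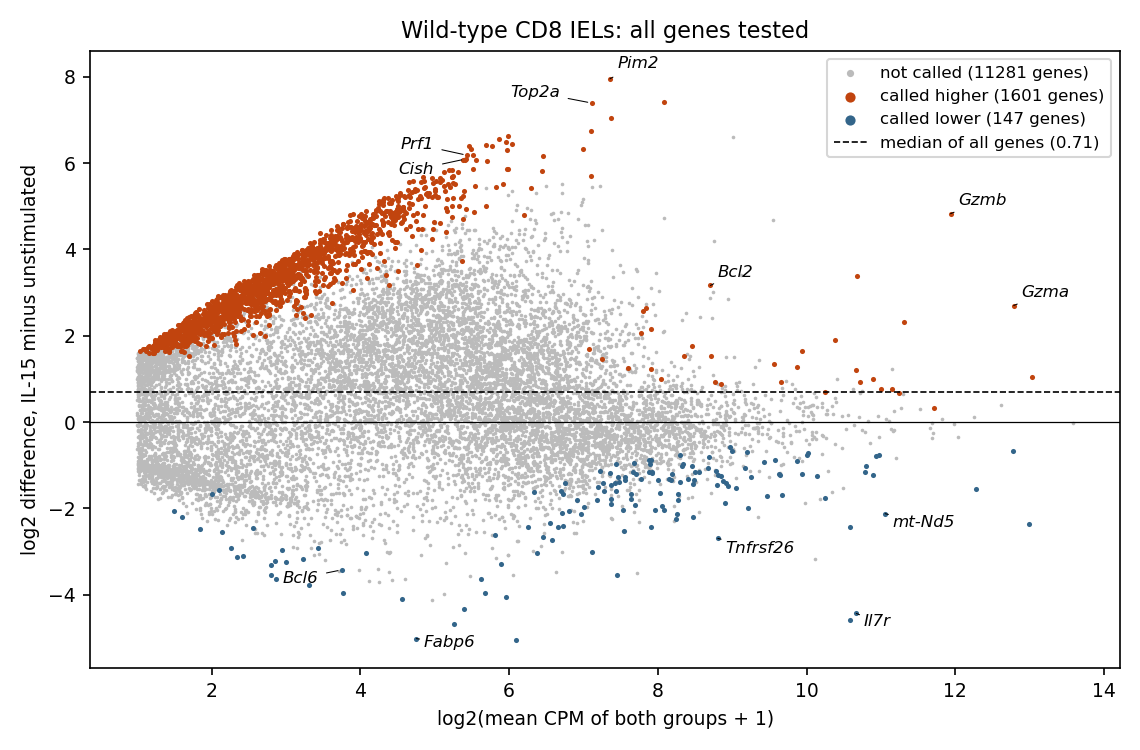
Each point is 1 of 13029 genes, with log2 of the mean CPM of both groups plus 1 on the horizontal axis and the log2 difference between IL-15 and unstimulated on the vertical axis. Called genes are in orange (1601 higher) and blue (147 lower), and the dashed line is the median of all genes at 0.71.

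Among genes that STAT5 is known to control as feedback and effector targets, Cish, Pim2 and Socs2 were higher with IL-15 and Bcl6 was lower. Of 17 list members tested, 8 were called higher and 1 lower, with a median log2 difference of 2.93 against 0.71 for all genes (edgeR 1.51, with 5 called higher and none lower). The promoters of Cish and Bcl6, called in opposite directions, are shown with that of Gzmb because each holds the spaced palindrome TTCNNNGAA bound by STAT proteins, in capitals. All are RefSeq sequences of build GRCm38.p6, 250 bases before to 50 after the transcription start, on the gene's strand. Cish lies at chr9:107296409-107296708 (plus strand), Bcl6 at chr16:23981234-23981533 (minus strand, the start with 3 matches) and Gzmb at chr14:56262285-56262584 (minus strand).
Cish: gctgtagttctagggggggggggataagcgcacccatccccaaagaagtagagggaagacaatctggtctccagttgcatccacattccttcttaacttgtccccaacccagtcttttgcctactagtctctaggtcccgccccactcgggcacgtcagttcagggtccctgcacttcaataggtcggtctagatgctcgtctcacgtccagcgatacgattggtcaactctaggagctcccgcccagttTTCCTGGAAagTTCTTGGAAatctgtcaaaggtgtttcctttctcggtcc
Bcl6: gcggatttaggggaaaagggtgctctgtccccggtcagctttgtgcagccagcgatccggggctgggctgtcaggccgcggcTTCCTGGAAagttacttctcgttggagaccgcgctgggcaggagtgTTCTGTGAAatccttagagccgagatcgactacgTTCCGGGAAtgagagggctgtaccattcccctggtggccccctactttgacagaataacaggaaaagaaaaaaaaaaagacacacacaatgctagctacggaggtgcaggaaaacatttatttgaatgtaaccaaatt
Gzmb: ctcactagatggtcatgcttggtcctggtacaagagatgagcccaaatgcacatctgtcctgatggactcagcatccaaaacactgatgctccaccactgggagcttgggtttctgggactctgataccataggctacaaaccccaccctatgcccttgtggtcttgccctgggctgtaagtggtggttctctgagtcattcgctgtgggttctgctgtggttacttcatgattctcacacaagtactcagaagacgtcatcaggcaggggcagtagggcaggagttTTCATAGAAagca
The Cish matches span +1 to +9 and +12 to +20, those of Bcl6 -168 to -160, -122 to -114 and -88 to -80, and that of Gzmb +38 to +46. A second Bcl6 start has 1 match at -118 to -110. The motif reads the same on both strands and matches of one letter pattern may overlap. It stood in 6 of 18 promoters of the STAT5 list (33.3%), which belong to Bcl6, Cish, Lta, Socs3 and Tnfrsf9, against 8.3% of all 32851 promoters in the table and 7.05% of those of tested genes. Promoters of genes called higher held it in 8.19% and those of genes called lower in 7.14%. The list was made of known STAT5 targets, so its share is a description.

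Cish, an SH2-domain inhibitor that STAT5 induces and that damps cytokine signalling, was at 70.5, 51.1 and 128 CPM with IL-15 and at 0.0477, 0.293 and 0.115 CPM without. Every wild-type IL-15 library was far above every unstimulated wild-type one, with a log2 difference of 6.09 (SE 0.70, adjusted p = 0.00644). In lnc13-knockout libraries, scaled over 12 libraries, Cish was at 78.64, 90.48 and 75.69 CPM with IL-15. Without stimulation it was at 0.1202, 0 and 50.03 CPM there, so the level near 0 did not hold in knockout replicate 3. Pim2, a survival kinase downstream of STAT5, had the largest difference of all named genes, at 402, 377 and 196 CPM against 0.477, 0 and 0.346 CPM (log2 7.95, SE 0.80, adjusted p = 0.00644). Its transcript was close to absent from the unstimulated libraries. Socs2, another feedback inhibitor, was at 70.5, 62.7 and 100 CPM against 0.0954, 1.17 and 9.85 CPM (log2 4.71, adjusted p = 0.0415). Ccnd2, the D-type cyclin of early G1, was already expressed without stimulation, at 970, 448 and 394 CPM, and stood at 1804, 2094 and 2311 CPM with IL-15. The lymphotoxin gene Lta (log2 5.57), oncostatin M (Osm, 3.93) and the phosphatase gene Dusp5 (4.22) were also called higher, each at adjusted p = 0.00644.

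Bcl6, a transcriptional repressor that favours stem-like and follicular T cell states, was called lower. Its level was 0.820, 0.905 and 2.12 CPM with IL-15 against 33.4, 16.6 and 21.1 CPM, without overlap (log2 -3.42, SE 0.62, adjusted p = 0.0162). The call was absent in edgeR and without IL-15 replicate 2 or 3. Socs1, another feedback gene, did not pass and was at 142, 89.3 and 148 CPM against 77.8, 0.0489 and 50.9 CPM, and Myc, the growth regulator, at 181, 214 and 195 CPM against 333, 156 and 105 CPM, with the groups overlapping.

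Among the receptor chains and kinases, 2 of 11 tested members were called higher and none lower, with a median of 1.38 that was -0.60 in edgeR, which called none. Il2ra, the alpha chain that raises affinity for IL-2, went from 0.143, 0.489 and 0 CPM to 49.9, 28.5 and 78.3 CPM (log2 5.36, SE 0.66, adjusted p = 0.00644). Il2rg, the common gamma chain, was at 2968, 2828 and 2716 CPM against 1386, 2020 and 1673 CPM (log2 0.76, SE 0.15, adjusted p = 0.0224). That direction depended on scaling, since size factors gave -0.0603. Il2rb, the chain that IL-15 signals through, was at 271, 214 and 169 CPM with IL-15 but at 336, 1.32 and 2.25 CPM without, so 1 unstimulated library lay above all IL-15 libraries and the others near 0 (adjusted p = 0.324). Stat5b (44.2, 34.6 and 58.7 against 118, 0.587 and 1.09 CPM) and Jak3 (9.08, 9.95 and 12.05 against 48.2, 0.293 and 0 CPM) showed the same layout. Il15ra, which presents the cytokine, was at 34.1, 31.7 and 44.6 CPM against 18.2, 97.6 and 0.576 CPM, with the groups overlapping.

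Genes of DNA replication and mitosis formed the group with the highest median of the 30 functional lists. All 50 members were tested, 31 were called higher and none lower, and the IL-15 libraries lay above all unstimulated ones for 40. Over all genes tested these shares were 12.3% called higher, 1.13% called lower and 22.6% higher without overlap. The median of the list was 4.52, and 3.48 for IL-15 replicate 3 alone against the unstimulated libraries, so the group was also high in the Cd8b1-rich library. Top2a, the topoisomerase of mitotic chromosomes, was at 366, 362 and 94.9 CPM against 0.239, 0.782 and 0.230 CPM (log2 7.39, SE 0.92, adjusted p = 0.00644). Rrm1 and Rrm2, the subunits of ribonucleotide reductase, were at 384, 437 and 163 CPM and at 353, 374 and 86.2 CPM, against at most 2.63 and 6.44 CPM without stimulation. In these genes IL-15 replicate 3 was the lowest cultured library and still lay above every unstimulated one. edgeR called 19 members higher, as did limma without IL-15 replicate 2.

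Genes of successive cell cycle steps were high together. Cdk6, the kinase partner of D-type cyclins, was at 590, 553 and 460 CPM against 21.6, 0.196 and 0.115 CPM. For the start of replication, Mcm2 of the replicative helicase was at 161, 129 and 80.4 CPM against 0.286, 0.929 and 0.403 CPM, and the clamp loader gene Rfc5 at 124, 138 and 82.3 CPM against 0, 0.440 and 0.173 CPM. Cdk1, the mitotic kinase, was at 80.1, 94.8 and 21.2 CPM against 0, 0.293 and 0.0576 CPM, and its cyclin gene Ccnb2 at 154, 138 and 29.6 CPM against 0, 0.0978 and 0 CPM. The spindle genes Tpx2 (log2 6.62) and Tacc3 (6.48) and the repair gene Fignl1 (6.45) were also among the 14 largest rises. Mki67, the usual proliferation marker, was at 135, 161 and 76.1 CPM against 0.191, 0.147 and 17.6 CPM. It did not overlap, yet fell short of the threshold (adjusted p = 0.056). Mcm6 was at 666, 747 and 477 CPM against 549, 1.27 and 497 CPM, and Mcm4 at 384, 411 and 336 CPM against 352, 177 and 316 CPM, so not every replication gene was low in unstimulated cells.

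The Cdc6 promoter is shown for the E2F-type motif, searched as TTTGGCGC and TTTCCCGC on both strands, a search added after the expression values were seen. Cdc6 loads the helicase at origins, and its level was 105, 112 and 31.7 CPM with IL-15 against 0.0477, 0.244 and 0 CPM. The RefSeq promoter (GRCm38.p6, chr11:98907901-98908200, plus strand) has 1 match, in capitals, at -138 to -131, as the reverse complement.
Cdc6: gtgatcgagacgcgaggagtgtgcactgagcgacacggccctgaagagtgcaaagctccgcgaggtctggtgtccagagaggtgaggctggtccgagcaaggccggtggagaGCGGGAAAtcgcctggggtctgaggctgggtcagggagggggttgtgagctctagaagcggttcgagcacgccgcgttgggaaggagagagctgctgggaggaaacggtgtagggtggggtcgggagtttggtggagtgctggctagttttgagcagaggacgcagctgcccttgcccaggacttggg
Of 43 promoters of the replication list, 8 held either word (18.6%), against 2.97% of promoters of tested genes. The share was 2.84% for genes called higher and 1.95% for genes called lower. Mcm3, Mcm5, Mcm6 and Mcm7 were among those 8, while 2 of 43 (4.65%) held TTCNNNGAA.

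Inhibitors of the cycle were called in both directions. Of 20 tested members of a list of cell cycle inhibitors and p53 targets, 4 were called higher and 2 lower, or 2 and 3 with size factors. Cdkn1b, the p27 inhibitor of resting lymphocytes, was at 28.5, 20.2 and 52.6 CPM against 237, 143 and 148 CPM (log2 -2.42, SE 0.52, adjusted p = 0.0315). Btg1, an antiproliferative gene of quiescent T cells, was at 307, 290 and 483 CPM against 907, 934 and 731 CPM (log2 -1.28, adjusted p = 0.0207). Both quiescence genes were lower in every cultured library. Cdkn2b, the p15 inhibitor, was called higher, at 6.50, 5.26 and 5.41 CPM against at most 0.293 CPM.

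Perforin and 3 granzyme genes were called higher, and some granule genes were already abundant in unstimulated cells. Of 19 members tested, 5 were called higher and none lower, with a median of 2.22 (edgeR 0.92, with 3 called higher and 1 lower), or 1.44 for IL-15 replicate 3. Gzmb, the serine protease that triggers apoptosis in target cells, was at 9148, 8577 and 4931 CPM against 140, 343 and 348 CPM (log2 4.83, SE 0.44, adjusted p = 0.00644). Prf1, the pore former that delivers granzymes, was at 102, 62.4 and 88.9 CPM against 0.143, 0.0978 and 0.230 CPM (log2 6.18, SE 0.66, adjusted p = 0.00644). Prf1 was thus close to 0 in all unstimulated libraries while Gzmb was not. Gzma, the tryptase granzyme, was at 15640, 18020 and 3803 CPM against 1122, 1952 and 1786 CPM (log2 2.70, SE 0.63, adjusted p = 0.0436), and its difference was 1.25 for IL-15 replicate 3. Its 2 high libraries were the Trdc-rich ones, and the part of that in the result was not tested. Nkg7, a granule membrane protein, was at 4654, 4452 and 3599 CPM against 917, 638 and 1012 CPM (log2 2.32, SE 0.20).

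Gzmc was called higher at 17.5, 13.9 and 10.7 CPM against 0, 0.391 and 0 CPM, although reads of the closely related granzymes C to G may be shared between copies. Gzmk, the granzyme of less differentiated memory cells, lay lower without overlap at 159, 86.4 and 271 CPM against 534, 398 and 661 CPM (adjusted p = 0.0649). Fasl, the death ligand, was at 681, 741 and 644 CPM against 440, 110 and 285 CPM (adjusted p = 0.135). Ifng did not separate the groups, at 14.7, 8.93 and 43.4 CPM against 16.4, 0.0489 and 0.173 CPM.

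Natural killer receptors, which IELs share with innate lymphocytes, differed between the cultured libraries along with Trdc. Of 24 members tested, 1 was called higher and none lower, and the median of 1.26 was 0.11 for IL-15 replicate 3. Without that replicate 7 members were called higher at a median of 2.09, and in the KO 10 were called higher and 1 lower. The called gene was Klrb1f, a C-type lectin receptor, at 12.9, 6.16 and 8.80 CPM against at most 0.239 CPM. Klra3, Klra6, Klra7 and Klri1 were at 9.44 to 45.3 CPM in IL-15 replicates 1 and 2 and at 0 to 0.777 CPM in IL-15 replicate 3, although near-identical Klra copies can share reads. Klrd1, the partner of NKG2 receptors, was at 353, 492 and 53.2 CPM against 220, 374 and 132 CPM, and Klrk1 (NKG2D) at 39.9, 15.7 and 4.56 CPM against 96.3, 1.22 and 0.518 CPM. The groups overlapped for both genes, and the IL-15 library lowest in Trdc was also the lowest cultured library.

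The BCL-2 family decides between survival and mitochondrial cell death, and its 2 called members are survival genes. Of 14 tested, Bcl2 and Bcl2l1 were called higher and none lower, a share near the 12.3% of all genes called higher. The IL-15 libraries lay above all unstimulated ones for 4 members and below them for 1. Over all genes tested these shares were 22.6% and 8.27%. Bik and Bmf had the next smallest p and were not called. Bcl2 was at 682, 753 and 798 CPM against 122, 103 and 43.9 CPM (log2 3.16, SE 0.41, adjusted p = 0.00688), with similar values in all cultured libraries. Bcl2l1, which encodes BCL-XL, was at 51.2, 38.6 and 49.2 CPM against 0.239, 0.440 and 0.115 CPM (log2 5.22, SE 0.57, adjusted p = 0.00644). The death effector Bax was at 177, 175 and 166 CPM against 187, 70.2 and 61.4 CPM, with overlap. The pro-apoptotic Bcl2l11 (BIM) was at 86.7, 111 and 38.6 CPM against 0.0477, 0.831 and 209 CPM, so the unstimulated libraries differed more among themselves than from the cultured ones.

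**Figure D3:**
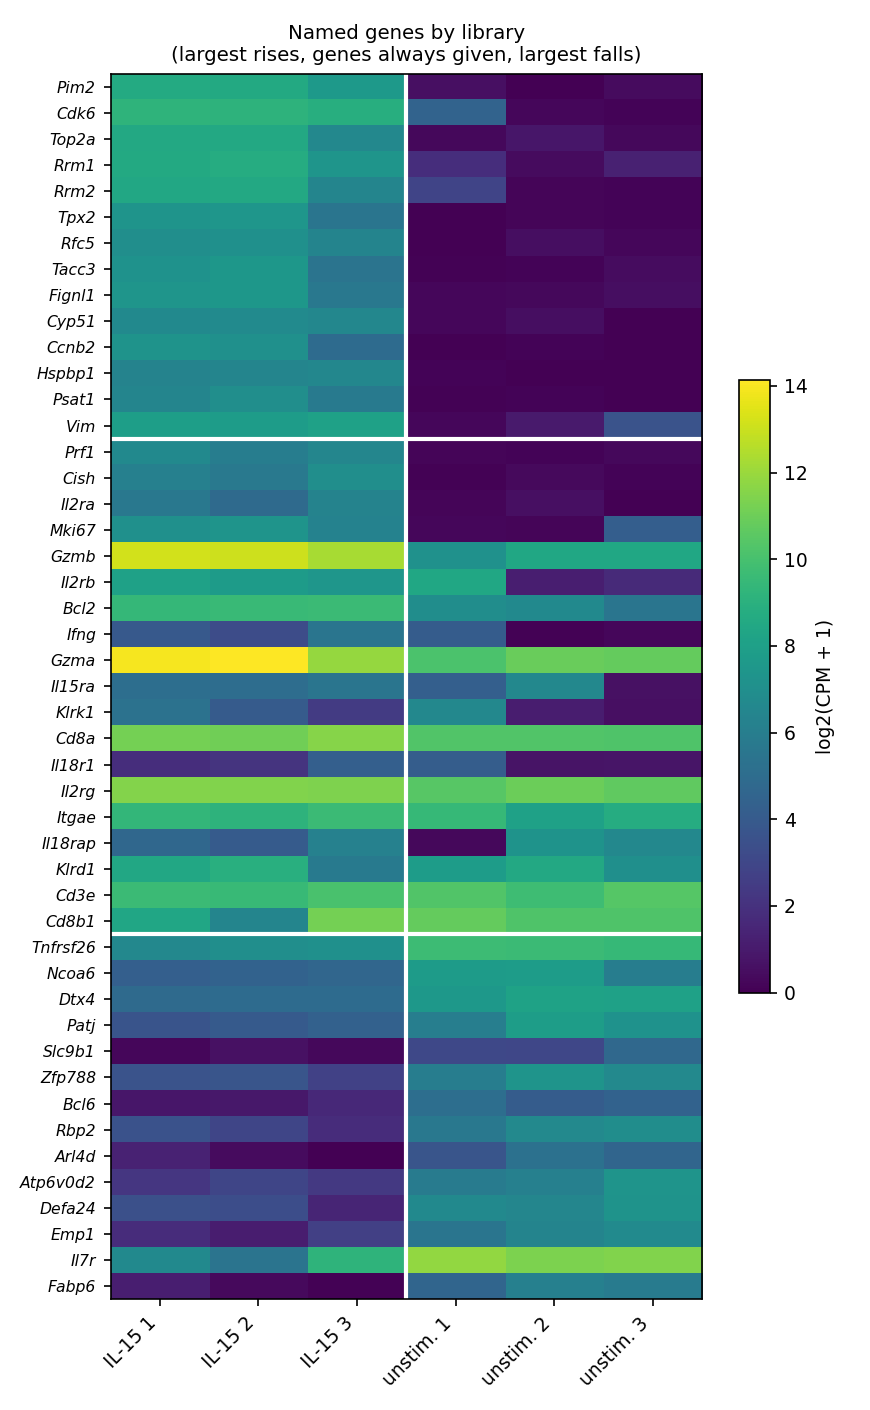
Heat map of log2(CPM + 1) for the 14 genes with the largest rise, the 19 genes always given and the 14 with the largest fall, with 1 column per library. In the top block the 3 IL-15 columns are bright and the unstimulated columns dark, in the bottom block the reverse, and in the middle block Cd8b1 is low in IL-15 replicates 1 and 2 only.

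Other cytokine receptors and T cell cytokines were called in both directions. Of 19 cytokine receptors tested 2 were called higher and 2 lower, and edgeR called none higher and 3 lower. Il7r, the IL-7 receptor alpha chain of resting and memory T cells, was at 103, 43.0 and 575 CPM with IL-15 against 3653, 2567 and 2816 CPM (log2 -4.43, SE 0.92, adjusted p = 0.0287). The difference was -2.39 for IL-15 replicate 3, which remained below every unstimulated library. Ifngr1, the ligand-binding chain of the interferon gamma receptor, was at 1247, 1393 and 1643 CPM against 2479, 2574 and 2339 CPM (log2 -0.79, adjusted p = 0.01). Its partner Ifngr2 (log2 2.21) and Il10ra (3.15) were called higher. Of the 15 cytokine and chemokine genes tested, 4 were called higher and 2 lower, or 2 and 3 with size factors. Tnf was at 6.56, 5.48 and 22.2 CPM with IL-15 and at 0 in each unstimulated library. Fgl2, a secreted immunoregulatory protein, was at 3403, 4279 and 1216 CPM against 87.4, 421 and 412 CPM (log2 3.39, adjusted p = 0.0412). Ltb, lymphotoxin beta, was called lower at 1145, 866 and 1296 CPM against 2759, 2032 and 2503 CPM (log2 -1.15, adjusted p = 0.0138).

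T cell receptor signalling genes had a median of -0.32, and 1 of 25 was called in each direction. With size factors the median was -1.14 with none called higher and 8 lower, edgeR called none higher and 1 lower, and without IL-15 replicate 3 limma called 1 higher and 6 lower. The called fall was Ptpn22, a phosphatase that restrains receptor signalling, at 753, 781 and 819 CPM against 1255, 1149 and 1473 CPM (log2 -0.71, adjusted p = 0.016). The called rise was Cd8a, at a log2 difference of 0.99 (SE 0.14, adjusted p = 0.0087). Cd28, the costimulatory receptor, was at 20.3, 8.37 and 129 CPM against 304, 214 and 581 CPM (log2 -3.51, adjusted p = 0.0919), Cd2 at 126, 70.6 and 350 CPM against 482, 456 and 551 CPM. Like Cd8b1, Cd28 and Cd2 were highest among cultured libraries in replicate 3.

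Among 30 lineage transcription factors tested, 2 were called higher and 2 lower. Size factors gave 1 higher and 5 lower, and edgeR gave none higher and 3 lower. Tcf7, the TCF-1 factor of stem-like T cells, was at 189, 179 and 358 CPM against 1238, 621 and 980 CPM (log2 -1.98, SE 0.38, adjusted p = 0.0215). Ets1 was at 1393, 1379 and 1697 CPM against 2645, 2417 and 2492 CPM (log2 -0.76, adjusted p = 0.00833). Both falls were seen in every cultured library, including replicate 3. Runx1 was called higher at 17.9, 13.3 and 61.0 CPM against at most 0.859 CPM, and Irf8 at 42.4, 48.9 and 7.24 CPM against at most 0.831 CPM, neither of them in edgeR. Of 25 checkpoint and costimulatory receptors, 4 were called higher and none lower, a share near the 12.3% of all genes called higher. Their median was 1.65, or 0.306 in edgeR, which called 3. Entpd1, the ectonucleotidase CD39, was at 168, 192 and 13.7 CPM against at most 0.518 CPM, the inhibitory receptor Havcr2 (TIM-3) at 13.7, 10.4 and 6.11 CPM against at most 0.244 CPM, Lilrb4a at 32.8, 42.0 and 33.4 CPM against at most 0.0978 CPM.

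NF-kB feedback split as well, with 3 of 23 members called higher and 2 lower. Tnfaip3, the A20 enzyme that limits NF-kB, was at 48.2, 51.6 and 61.0 CPM against 235, 406 and 311 CPM (log2 -2.52, SE 0.32, adjusted p = 0.00654), and Traf1 was lower at log2 -1.31. Tnip2 (log2 3.78), Nfkbid (3.18) and Cd83 (3.59) were called higher. Tnfrsf26, a member of the TNF receptor family, had the smallest spread of the largest falls. It was at 96.3, 127 and 136 CPM against 813, 787 and 722 CPM (log2 -2.69, SE 0.20, adjusted p = 0.00644). Of 28 homing and residency genes only S1pr1, the egress receptor, was called higher (log2 2.87) and only Rgs1, a brake on chemokine receptors, lower (-1.35), and edgeR called neither. Itgae, the CD103 chain that binds epithelial E-cadherin, was at 652, 567 and 807 CPM against 710, 274 and 424 CPM, and the groups overlapped.

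Genes that build lipids and amino acids were among the calls. For cholesterol synthesis and uptake, 5 of 24 tested genes were called higher and none lower, with a median of 2.39 (edgeR 1.17, with 1 called). Cyp51, the sterol demethylase, was at 104, 106 and 93.7 CPM against 0.191, 0.440 and 0 CPM (log2 6.41, SE 0.69, adjusted p = 0.00644), and the calls also included Lss (4.78), Mvk (3.26) and Acat2 (1.54). For fatty acid synthesis, 3 of 12 were called higher, namely Acsl5 (log2 5.70), Fasn (3.00) and Scd2 (2.80), and none without IL-15 replicate 2. In amino acid and one-carbon metabolism 5 of 22 were called higher. Psat1, of serine synthesis, was at 86.4, 124 and 53.9 CPM against 0.0477, 0.0978 and 0 CPM (log2 6.33, SE 0.68), Asns at 14.7, 8.42 and 19.8 CPM against at most 0.173 CPM, and the amino acid carriers Slc7a5 (2.85) and Slc7a1 (2.75) were called too. For Cyp51, Psat1 and Asns all IL-15 libraries exceeded all unstimulated ones, replicate 3 included. That held for 11 of the 24 cholesterol genes, 6 of the 12 fatty acid genes and 7 of the 22 amino acid and one-carbon genes. Over all genes tested it held for 22.6%.

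Ribosome biogenesis genes had a median of 1.43 (size factors 0.67, edgeR -0.05), with 3 of 40 called higher, Bop1 (log2 4.64), Polr1a (3.53) and Cad (2.73). Ribosomal protein genes had a median of -0.14, and 1 of 54, Rps27, was called lower (log2 -1.25). Size factors gave -0.96 with 10 called lower, and without IL-15 replicate 3 there were 4. Nuclear-encoded subunits of oxidative phosphorylation held a median of 0.36, which became -0.46 with size factors, and none of 42 was called. In limma, 7 of 11 mitochondrially encoded transcripts were called lower, the highest share called lower of any list. edgeR also called 7, while none passed without IL-15 replicate 2 and 4 passed without replicate 3. mt-Nd5, a subunit of complex I, was at 729, 839 and 722 CPM against 2087, 4437 and 3953 CPM (log2 -2.12, SE 0.30, adjusted p = 0.00775), and mt-Co1, of cytochrome oxidase, at 2654, 2656 and 2088 CPM against 4964, 9120 and 8178 CPM (log2 -1.55). Summed over the list, mitochondrial transcripts made up 11000, 12120 and 10220 CPM with IL-15 and 19640, 29930 and 29180 CPM without. The median of the list was -1.20, and size factors moved it to -2.02.

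**Figure D4:**
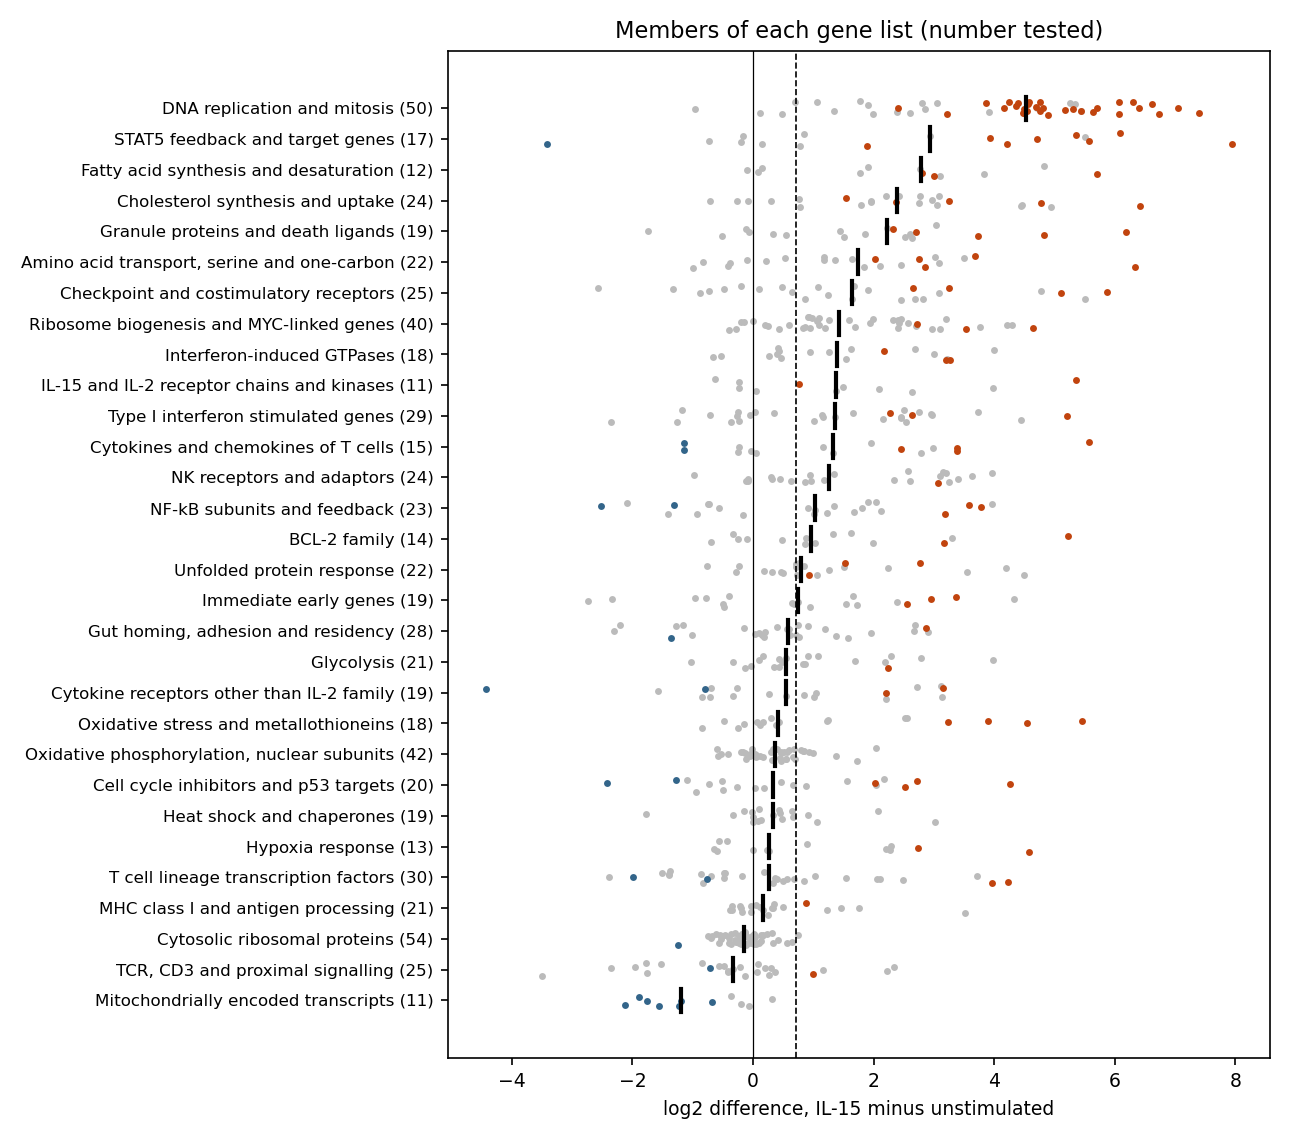
Members of each functional gene list by log2 difference between IL-15 and unstimulated, with the number tested in parentheses, called genes in orange (higher) and blue (lower), black bars for list medians and a dashed line at the median of all genes. DNA replication and mitosis has the highest median at 4.52 and mitochondrially encoded transcripts the lowest at -1.20.

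The counts of this paragraph stand beside 12.3% of all genes called higher. Glycolysis genes had a median of 0.55 and 1 call in 21, Aldoc, and that median became -0.12 with size factors. Gapdh was at 231, 186 and 253 CPM against 103, 151 and 114 CPM without passing. Oxidative stress genes had 4 of 18 called higher, including Gsr, glutathione reductase, at 83.4, 66.0 and 52.6 CPM against at most 0.811 CPM. Their median was 0.41 and -0.34 with size factors, so the sign of that median depended on scaling. Hypoxia genes had 2 of 13 called higher, the prolyl hydroxylases P4ha1 (log2 4.58) and P4ha2 (2.74), with a median of 0.26, or -0.55 with size factors, and edgeR called none. Of 22 genes of the unfolded protein response, Syvn1, Pdia3 and Herpud1 were called higher, and none of 19 heat shock genes was. Immediate early genes had 3 of 19 called higher, Egr1, Egr2 and Fosl2, while Fos lay at 4.75, 5.88 and 1.45 CPM against 50.6, 13.2 and 38.2 CPM without passing.

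Interferons induce antiviral and antigen presentation genes. Of 29 type I interferon stimulated genes, 3 were called higher and none lower, with a median of 1.35 that was -0.38 in edgeR, which called 1. Isg20, an antiviral exonuclease, was at 46.6, 41.3 and 57.7 CPM against at most 0.587 CPM (log2 5.21, SE 0.59, adjusted p = 0.00644), and Cmpk2 and Dhx58 had differences of 2.64 and 2.28. Of 18 interferon-induced GTPases, Gbp5 (log2 3.27), Iigp1 (3.20) and Gbp10 (2.17) were called, with the caution that Gbp copies are alike. Over all genes tested 12.3% were called higher. Of 21 genes of MHC class I presentation 1 was called higher, the proteasome activator Psme2 (log2 0.89), whereas edgeR and size factors each called none higher and 2 lower. The MHC list's median was 0.17 and -0.64 with size factors.

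Several of the largest falls are genes of gut epithelium. Fabp6, the ileal bile acid carrier, was at 1.29, 0.283 and 0.0707 CPM with IL-15 against 23.5, 71.7 and 59.0 CPM (log2 -5.02, SE 0.75, adjusted p = 0.00906). Defa24, a Paneth cell defensin with close copies, was at 10.02, 9.27 and 1.77 CPM against 104, 88.6 and 153 CPM, and Rbp2, the enterocyte retinol carrier, at 10.7, 6.78 and 2.51 CPM against 49.1, 98.1 and 123 CPM. Of 20 epithelial markers tested 2 were called lower and none higher, 18 had a negative difference, and the list summed to 209 to 289 CPM with IL-15 and 444 to 2209 CPM without. Epcam went the other way, at 120, 156 and 35.6 CPM against 0, 0.0489 and 72.7 CPM. The part of epithelial RNA in the falls was not tested.

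Markers of other cell types were also detected. Macrophage and dendritic cell markers summed to 442, 737 and 81.7 CPM with IL-15 and 70.5 to 93.1 CPM without, and 3 of 9 tested were called higher. These were Cd68, H2-Eb1 and H2-Ab1, of which H2-Ab1 was at 80.5, 134 and 6.15 CPM against at most 0.576 CPM, high where Trdc was high. Xcr1 was at 0 in all IL-15 libraries. B and plasma cell markers summed to 402, 499 and 143 CPM against 525 to 810 CPM. Foxp3, the regulatory T cell factor, was called higher at 14.3, 5.09 and 28.2 CPM against at most 0.334 CPM, while Cd4 stayed between 0 and 2.58 CPM in the 6 libraries. Among gamma delta genes Tcrg-C2 and Tcrg-C4 were called higher (log2 1.65 and 1.35), though constant regions of this locus are alike, and the list summed to 6246, 6976 and 2238 CPM against 1010 to 1210 CPM. The part of these cells in other results was not tested.

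The remaining large changes belong to no list that was described. Vim, the intermediate filament protein, was at 241, 226 and 276 CPM against 0.191, 1.03 and 11.2 CPM (log2 6.33, SE 1.09, adjusted p = 0.0146), and Hspbp1, a cochaperone, at 80.4, 86.1 and 91.0 CPM against 0.0955, 0 and 0 CPM. Both were as high in IL-15 replicate 3 as in the others. On the falling side Dtx4, a ubiquitin ligase of the Notch pathway, was at 28.8, 29.5 and 29.4 CPM against 185, 283 and 268 CPM (log2 -3.004, SE 0.37, adjusted p = 0.00644). Emp1 (log2 -4.34), Zfp788 (-3.29), Slc9b1 (-3.24), Patj (-3.04) and Ncoa6 (-2.74) were lower without overlap. Il18rap and Il18r1, the IL-18 receptor chains encoded next to each other, did not separate the groups, at 25.7, 15.8 and 72.7 CPM against 0.239, 154 and 96.6 CPM, and 2.58, 3.33 and 18.8 CPM against 17.0, 0.685 and 0.749 CPM.

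The 6 libraries of lnc13-knockout (KO) CD8 IELs, with the same culture labels, share no library with the wild-type comparison and were fitted together with it. In them 2036 of 13487 genes (15.1%) were called higher and 316 (2.34%) lower with IL-15. Among genes named by size or always given, 22 were called higher in wild type. All 22 had the same sign in the KO and 19 were called there. Klrb1f, called higher in wild type but outside these 22, lay lower with IL-15 in the KO. In that fit Pim2 was higher by 7.96 in wild type and 6.92 in the KO on the log2 scale, Gzmb by 4.83 and 4.80, Prf1 by 6.19 and 6.14, and Bcl2 by 3.16 and 3.77. Of the 14 largest named falls, 9 had the same sign and 3 were called, namely Il7r (-6.61), Tnfrsf26 (-2.86) and Bcl6 (-2.74). Atp6v0d2 was called in the other direction. The KO cultures were low in Cd8b1 (85.9, 143 and 134 CPM) and high in Trdc (1636, 1983 and 1357 CPM) in all 3 libraries. The difference between genotypes passed for 13 genes with a larger wild-type value and 32 with a smaller one (0.0964% and 0.237%), and edgeR called 5.

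**Figure D5:**
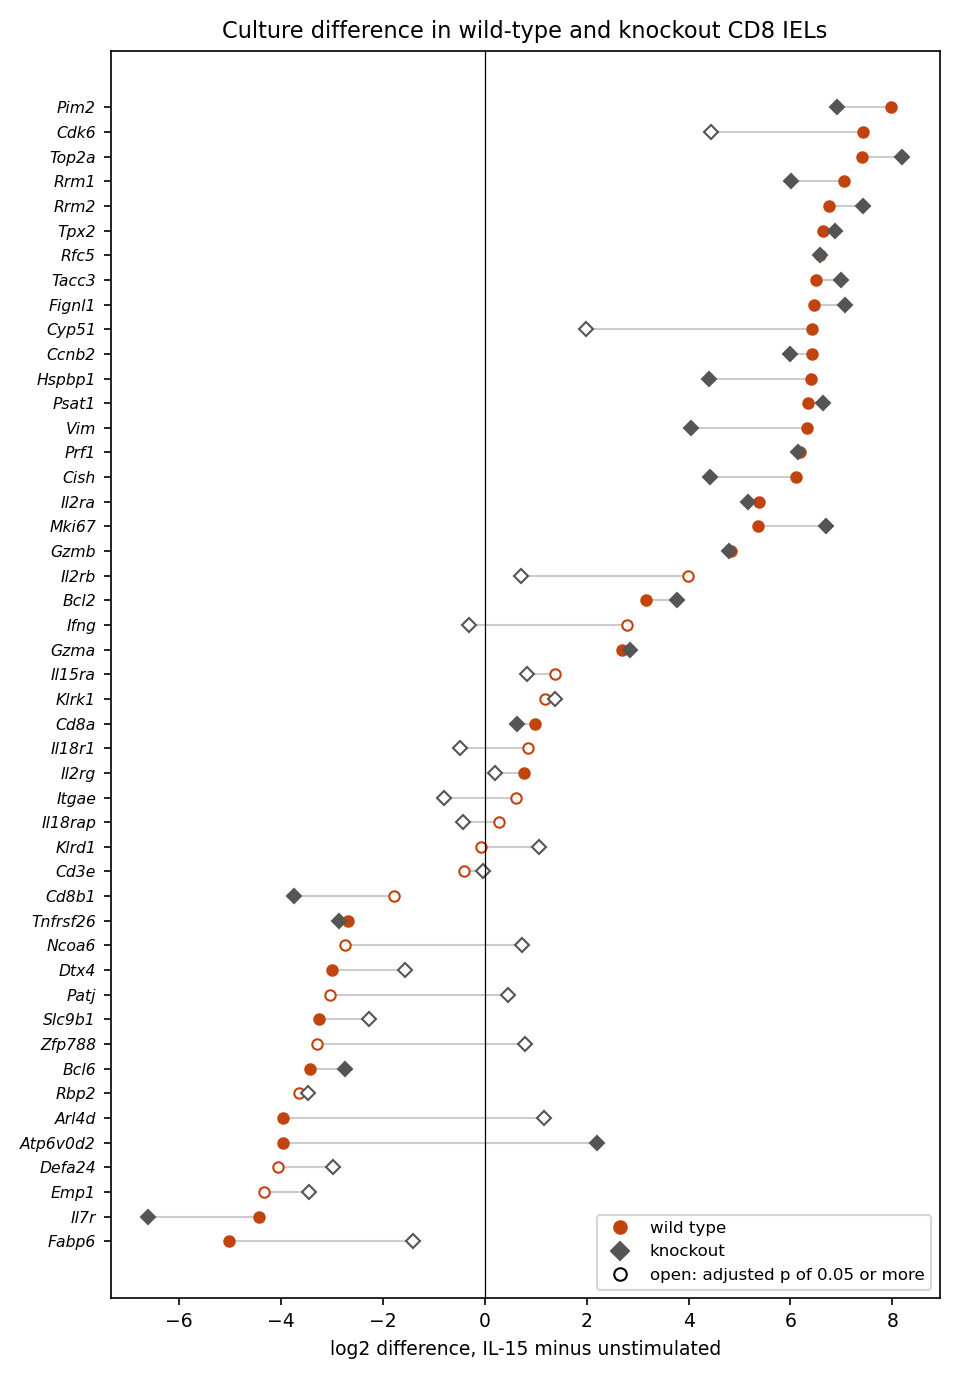
Log2 difference between IL-15 and unstimulated for the named genes, with wild type as circles and KO as diamonds from the fit of 12 libraries, filled where the adjusted p is under 0.05. The circle and diamond of Gzmb (4.83 and 4.80) nearly coincide, whereas Atp6v0d2 is at -3.95 in wild type and 2.21 in the KO.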

How the data were processed

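RNA of wild-type CD8 IELs, selected for poly(A) and prepared with NEBNext Single Cell/Low Input reagents (labels' protocols), was sequenced by the authors. The signal values the authors deposited, in 2 tables of Ensembl genes by library, are read counts divided by a size factor set separately in each table. Tested on the values, each column multiplied by 1 factor became whole within 0.01 for 100% of values, and these recovered reads were used. The submitters' processing notes list STAR, TopHat, BWA, featureCounts, DESeq, DESeq2, deepTools, mm10 and mm39 for these samples, with no role or version.

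Tables were joined on 78275 Ensembl IDs, of which 51486 had a symbol. CPM used TMM factors over the 6 libraries. Genes with a mean of at least 1 CPM were tested with limma (trend, robust) on log2(CPM + 1), with Benjamini-Hochberg adjustment at 0.05. The 12 CD8 libraries of both genotypes were fitted likewise for the KO and for the difference between genotypes. Tools were R 4.3.3, edgeR 4.0.16, limma 3.58.1, DESeq2 1.42.0 and Python 3.11.15. Fits were tested on simulated data with planted changes of at most 8-fold, smaller than the differences of many genes called here. Neither limma nor edgeR made a call there at each group's own spread. A gene that is not called here is therefore not shown to be unchanged. Alternatives were edgeR, DESeq2, other scalings, pseudocounts, filters, weights, a replicate block and leaving out libraries.

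Named genes were the 14 largest rises and 14 largest falls among called genes that averaged 5 CPM or more without overlap, 19 genes always given, and, per list, the 6 or fewer members of smallest p. Predicted genes, receptor segments and sex-linked genes were not named by size. Constant-region genes stood in marker lists. The samples, lists and genes were chosen with earlier results of these data known. The 17 genes given outside the rule (Ccnd2, Cdc6, Cdk1, Fasl, Jak3, Klra6, Mcm3, Mcm4, Mcm5, Mcm6, Mcm7, Myc, Socs1, Socs2, Socs3, Tnfrsf9 and Xcr1) were chosen after their values were seen. Promoters were read from a RefSeq table (GRCm38.p6), where 8816 of the tested genes matched by symbol. Counting error is small beside the spread between libraries, except near 1 CPM.

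Replicate numbers were checked as pairs. Deviations from group means correlated at -0.0384, 0.0437 and -0.00795 for numbers 1, 2 and 3. As the unstimulated libraries vary widely among themselves, these values cannot decide whether the numbers are pairs. Same-numbered libraries also differed in the Y-linked gene Ddx3y for each number, and the numbers were not taken as pairs.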

Additional observations from a re-analysis of the deposited data

Results flagged for a closer look

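For 6 genes the IL-15 difference itself differed between wild-type and KO CD8 IELs in the 12-library limma fit, out of the 756 list members and named genes looked at. The differences below are wild type minus KO on the log2 scale, and CPM are scaled over 6 libraries for wild type and over 12 for the KO. In each gene the unstimulated libraries of a single genotype were low. Among genes averaging at least 50 CPM without stimulation, 25.5% in wild type and 29.2% in the KO were under 1 CPM in some library. The part of this uneven detection in the differences was not tested.

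Mcm4, a helicase subunit, had a value of -6.76 (adjusted p = 0.0218), and it was at 352, 177 and 316 CPM in unstimulated wild-type libraries but at 0.962, 0.482 and 4.33 CPM in unstimulated KO libraries. Bhlhe40, a transcription factor of tissue-resident and cytokine-producing T cells, had -6.39 (adjusted p = 0.0224), with 169, 152 and 132 CPM against 0, 0.642 and 0.591 CPM. The interferon-induced Rtp4 had -5.89 (adjusted p = 0.0351), with 52.1, 76.4 and 51.2 CPM against 0, 0.0535 and 0 CPM. With IL-15 the wild-type and KO libraries were at 336 to 411 and 336 to 396 CPM for Mcm4, 197 to 225 and 119 to 192 CPM for Bhlhe40, and 50.6 to 69.4 and 53.8 to 65.0 CPM for Rtp4.

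Klrb1f, a lectin receptor, had 6.18 (adjusted p = 0.044). It was at 0.239, 0.147 and 0.173 CPM in unstimulated wild-type libraries and at 100, 84.7 and 20.8 CPM in unstimulated KO libraries, and at 6.16 to 12.9 and 3.52 to 10.97 CPM with IL-15. Atp6v0d2, a proton pump subunit, had -6.16 (adjusted p = 0.0265), and it was at 58.1, 70.0 and 160 CPM against 0, 0.0535 and 0 CPM without stimulation. The small GTPase gene Arl4d had -5.12 (adjusted p = 0.0288), at 12.2, 38.2 and 23.6 CPM against 0.120, 0.107 and 0 CPM. Among all 13487 genes 45 passed this test, and an edgeR fit called 5.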

How the results depend on the processing

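Of 36 named calls, 388 of 673 alternative values kept direction and call, 283 lost the call, and 2 reversed, both of Il2rg (-0.177 with DESeq2, -0.0603 with size factors). The counts moved with the fit, the filter and single libraries. Called higher and lower were 986 and 162 with edgeR, 1480 and 1952 with DESeq2, 1052 and 398 with size factors, 802 and 112 at a mean of at least 5 CPM, 0 and 0 without a filter, and 2 and 2 with array weights. A replicate block gave 0 and 0 and ended all 36 calls. The block and the absent filter leave each log2 difference as it was, so they bear on the calls and not on the directions. Leaving out 1 library gave 0 to 2785 higher and 0 to 467 lower. Chosen after seeing the data, a mean of at least 50 CPM gave 2 and 2, and leaving out IL-15 replicates 1 and 2, which assumes that the single cultured library left varies as the other libraries do, gave 0 and 0. An unadjusted p under 0.05 was still seen for 7938 of 59788 genes without a filter and for 2407 of 13029 with the block. A share of 0.05 is expected where no gene differs. The difference between genotypes passed for 45 of 13487 genes, for 5 of 15607 in edgeR and for 0 of 13487 with a replicate block. An unadjusted p under 0.05 was seen for 704 genes in the main fit and 487 with the block, near or under that share. The cause was not tested.

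Reversals outside the calls were these. Cd8b1 became 0.721 and Klrk1 -0.312 for IL-15 replicate 3 alone. Itgae became -0.203 with DESeq2 and -0.202 with size factors. Il15ra became -0.705 with edgeR, -1.26 with DESeq2 and -0.234 without unstimulated replicate 3, and Klrk1 -0.703 with edgeR and -1.13 with DESeq2. Klrd1 became 0.0532 with total reads, 0.737 with array weights, 0.754 without IL-15 replicate 3 and 0.359 without unstimulated replicate 2. Il18r1 became -0.0183 without IL-15 replicate 3. Il18rap became -1.71 with edgeR, -2.24 with DESeq2, -0.53 with size factors, -0.193 with a pseudocount of 4 CPM, -0.495 without IL-15 replicate 3 and -2.23 without unstimulated replicate 1. With 1 library left out, values ran from -0.234 to 2.83 for Il15ra, -0.7 to 0.754 for Klrd1, -0.0183 to 1.81 for Il18r1 and -2.23 to 1.55 for Il18rap. Depth limits genes near 1 CPM.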

Other observations

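The Y-linked gene Ddx3y was at 144, 0.0572 and 0 CPM in the IL-15 libraries and at 0, 178 and 75.7 CPM in the unstimulated ones, scaled over 12 libraries. Same-numbered cultured and unstimulated libraries thus differed in this gene for each number, and each wild-type group held libraries with and without it. Xist ran opposite to it, at 0.0593, 46.0 and 59.5 CPM with IL-15 and 14.8, 0.148 and 0.350 CPM without. In the KO, Ddx3y was at 0 in every culture but at 0.0601, 210 and 136 CPM in the unstimulated libraries. It was thus not balanced between the KO groups, and the part of sex in the results was not tested.

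The uneven detection of well-expressed genes was also seen in the KO. Of 4517 genes with a mean of at least 50 CPM in unstimulated KO libraries, 1320 (29.2%) were under 1 CPM in at least 1 library, against 0 of 3803 in KO cultures. Unstimulated libraries listed more genes with at least 1 read, 35837 to 43699 in wild type against 21149 to 29333 with IL-15.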
